A study of Mus musculus with 2 samples.

Results

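The prostaglandin genes of BV2 cells were examined in 2 culture media. BV2 is an immortalized cell line of mouse microglia, which are the macrophages that reside in the brain. The cells had been plated in DMEM/F12 and were then given either the standard medium DMEM or fresh DMEM/F12 for 1 d, with fetal bovine serum and antibiotics in both media. DMEM/F12 is a richer mixture that also holds non-essential amino acids, metal ions, hypoxanthine, linoleic acid and vitamins that DMEM lacks. RNA from each medium was hybridized to 1 Affymetrix Mouse Gene 1.0 ST array, which gives 1 log2 value for each transcript cluster, a group of probes that measures a gene or a part of it. The group consists of 10 genes, picked by name with earlier results of these same arrays known, and their DMEM value, DMEM/F12 value and difference are given here as a description. Of the 19938 genes with a value, 9 belong to this group: Ptgs2, Ptges, Ptges2, Ptges3, Hpgds, Tbxas1, Ptger2, Ptger4 and Hpgd. No cluster is named Ptgs1 in the annotation used here, so the other cyclooxygenase gene has no value.

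Prostaglandins are short-lived lipid messengers made on demand. Phospholipases release arachidonic acid from membranes, a cyclooxygenase (COX-1, encoded by Ptgs1, or COX-2, encoded by Ptgs2) converts it to the unstable intermediate PGH2, and a terminal synthase then decides which prostanoid is formed. PGE2, a major prostaglandin of inflamed brain tissue, acts on microglia mainly through the EP2 and EP4 receptors, which raise cAMP. In macrophages and microglia Ptgs2 is the inducible step, whereas Ptgs1 is expressed more steadily.

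Differences are on the log2 scale and negative where DMEM/F12 gave the lower value. A fold is the ratio of the larger to the smaller value on the linear scale. A single array for each medium leaves no replicates and no residual degrees of freedom. No p-value or SD was therefore calculated, and every difference compares 2 cultures. An effect of the medium cannot be told apart from any other difference between the 2 cultures, and fewer expressing cells cannot be told apart from less RNA per cell. Odorant, pheromone and taste receptor genes, silent in most tissues, served to set background: the 95th percentile of their 1248 clusters was taken per array, which gave 4.15 for DMEM and 4.17 for DMEM/F12 (log2). A gene was counted as above background on an array where at least 1 of its clusters was, even if their mean was not. By this rule 12545 of all genes were above background on both arrays. Background was exceeded in DMEM, DMEM/F12 or both by 13225 of the 19938 genes. A count of markers above it therefore does not identify a cell type by itself. Of 16 measured microglia and macrophage markers, 13 were above background, with 8 higher, 5 lower and a median difference of 0.01. Among them, named after their values were seen, were Spi1 (10.34 in DMEM and 10.30 in DMEM/F12), Tyrobp (11.13 and 11.17) and Csf1r (8.79 and 8.47). The 2 largest differences were those of Tmem119, with -0.66 (6.71 and 6.05), and Trem2, with 0.40 (9.23 and 9.63). The microglial markers P2ry12, Fcrls and Aif1, also named after their values were seen, were not above background on either array. Of the markers of other brain and stromal cells, 2 of 7 for neurons, 1 of 6 for astrocytes, 4 of 5 for oligodendrocytes and 4 of 7 for fibroblasts and endothelium were above background on at least 1 array. The differences of these 11 markers above background lay between -0.35 and 0.18, and their part in the results was not tested.

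The result turns on Ptgs2, so the sequence upstream of its transcription start is shown beside that of Ptges, the gene of the inducible PGE2 synthase that is often expressed together with it. Both are RefSeq sequences of the build GRCm38.p6 and cover the 250 bases before the annotated start, read 5′ to 3′ along the gene. Ptgs2 lies on the plus strand (chr1:150099781-150100030) and Ptges on the minus strand (chr2:30903298-30903547). Capitals mark matches to TTNNGNAA, the letters searched for C/EBP proteins, which are transcription factors of macrophage activation.
Ptgs2: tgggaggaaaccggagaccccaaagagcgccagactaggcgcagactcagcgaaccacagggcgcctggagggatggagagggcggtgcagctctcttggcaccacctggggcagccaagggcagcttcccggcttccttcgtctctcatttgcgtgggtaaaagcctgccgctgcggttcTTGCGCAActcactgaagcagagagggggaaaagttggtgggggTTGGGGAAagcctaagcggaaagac
Ptges: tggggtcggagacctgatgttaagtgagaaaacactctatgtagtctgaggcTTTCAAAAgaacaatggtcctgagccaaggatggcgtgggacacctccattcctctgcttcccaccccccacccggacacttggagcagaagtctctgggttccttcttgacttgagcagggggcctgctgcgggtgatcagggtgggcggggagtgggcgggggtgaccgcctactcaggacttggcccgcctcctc

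All 10 genes had an entry in the RefSeq promoter table, Ptgs1 included. The windows searched ran from 250 bases before to 50 after the start, on both strands, for TATAAA (the core promoter motif), CGTCA (the core of a cAMP response element), CACGTG (E-box), TTNNGNAA, TGANTCA (AP-1) and the NF-κB consensus. In Ptgs2 the C/EBP letters began 69 and 25 bases before the start, and a cAMP response element core at bases 14 to 18 after the start overlapped an E-box at bases 17 to 22, past the printed stretch. In Ptges the only match was 1 set of C/EBP letters on the opposite strand, 198 to 191 bases before the start. Of the 10 windows, only that of Ptgs2 held both a cAMP response element core and an E-box, which form 1 overlapping stretch. The share of all windows with both was not counted.
The C/EBP letters were in 6 of the 10 windows (Ptgs2, Ptges, Ptges2, Ptger2, Hpgds and Hpgd) and in 40.7% of the 32851 windows of the table. The cAMP response element core was in 2 of the 10 windows (Ptgs2 and Ptges3) and in 20.8% of the table, and the E-box in 2 (Ptgs2 and Ptges2) and in 7.15%. The NF-κB consensus was found in the Ptges3 window alone, against 5.8% of the table, and the AP-1 letters in that of Tbxas1 alone, against 7.81%. TATAAA was present in the windows of Tbxas1 and Hpgd and in 13.6% of the table. In Hpgd it lay after the start, at bases 5 to 10. In Tbxas1 it lay 13 to 8 bases before the start on the opposite strand and 11 to 6 bases before it on the strand of the gene. Whether any of these acts as a core promoter motif was not tested. The windows of Ptgs1 and Ptger4 held none of these letters. A match describes these letters only and was not set against any measurement of binding. Sequence outside the windows was not searched, so a window without a match does not mean that the gene lacks such a site. Positions before and after the start refer to the annotated start, which was not compared with a measured one.

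**Figure D1:**
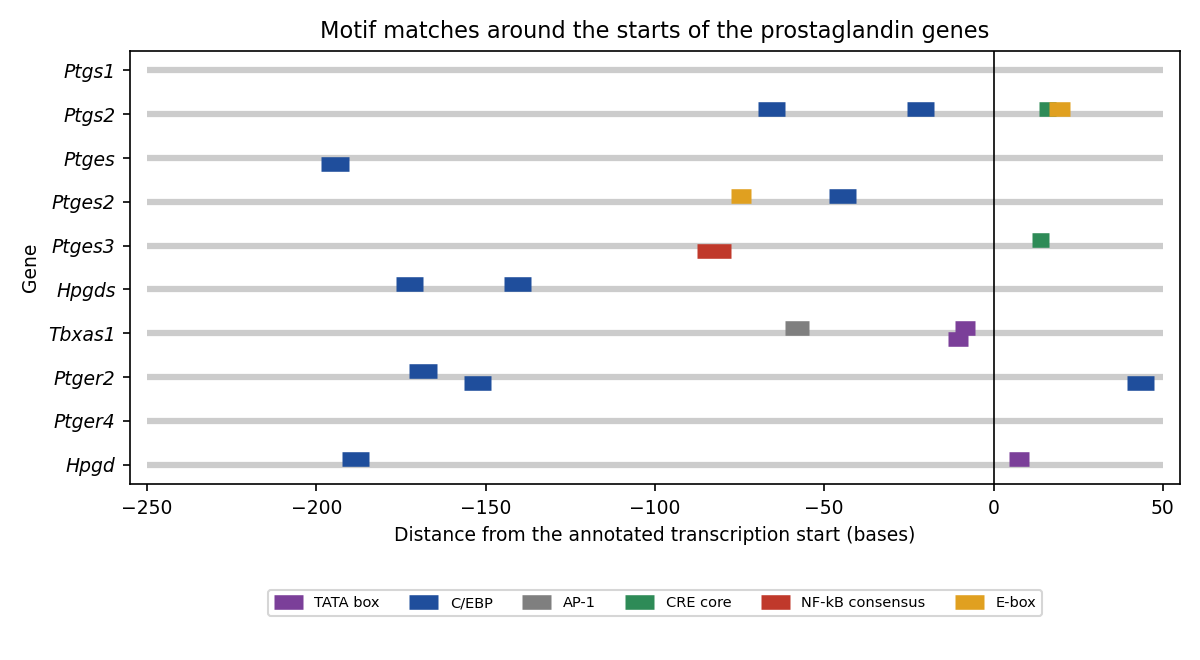
Matches to 6 motifs (colored blocks) in the promoter window of each of the 10 genes (y axis) by distance from the annotated transcription start in bases (x axis); blocks above the gray line are on the strand of the gene and blocks below it on the opposite strand, and an E-box, which reads the same on both, is drawn above; the core promoter motif is labeled TATA box. The Ptgs2 window holds 2 C/EBP matches before the start and an overlapping cAMP response element core (CRE core) and E-box after it.

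Ptgs2, which encodes COX-2, was measured at a log2 value of 7.31 in the DMEM culture and 6.14 in the DMEM/F12 culture. Its signal was thus lower in DMEM/F12 by 2.25-fold, a log2 difference of -1.17, and was well above background on both arrays. It was the only 1 of the 9 genes past 2-fold, and no gene of the group was at least 2-fold higher. Over all 19938 genes, 0.0251% were at least 2-fold lower and 0.0602% at least 2-fold higher. Since the genes were chosen with these values known, nothing is read from the count of 1 in 9 against these shares. Ptgs2 had the lowest difference of all genes in the values as deposited, and the second lowest after quantile normalization (-1.15) or loess centring (-1.16).
Among the 12545 genes above background in both media Ptgs2 was the only one at least 2-fold lower, beside 8 that were at least 2-fold higher. The next lowest, named after their values were seen, were Klk1b11, a kallikrein gene, at -0.94 and Pilrb1, an activating immune receptor gene, at -0.87. The genes whose pair of values lay nearest to that of Ptgs2 were found by the distance between the 2 pairs on the log2 scale. They were taken from the genes above background on both arrays, where Ptgs2 had the lowest difference. That none of them was lowered as much follows from this rank and is not a further result. The nearest was Otud6b, a deubiquitinase gene, with 7.04 in DMEM and 6.20 in DMEM/F12 (distance 0.28, difference -0.84). It was followed by Ube2j2 (-0.68), Mettl1 (-0.62), Commd9 (-0.61) and Tbc1d7 (-0.59), at distances of 0.35 to 0.45. This likeness rests on 2 arrays.

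**Figure D2:**
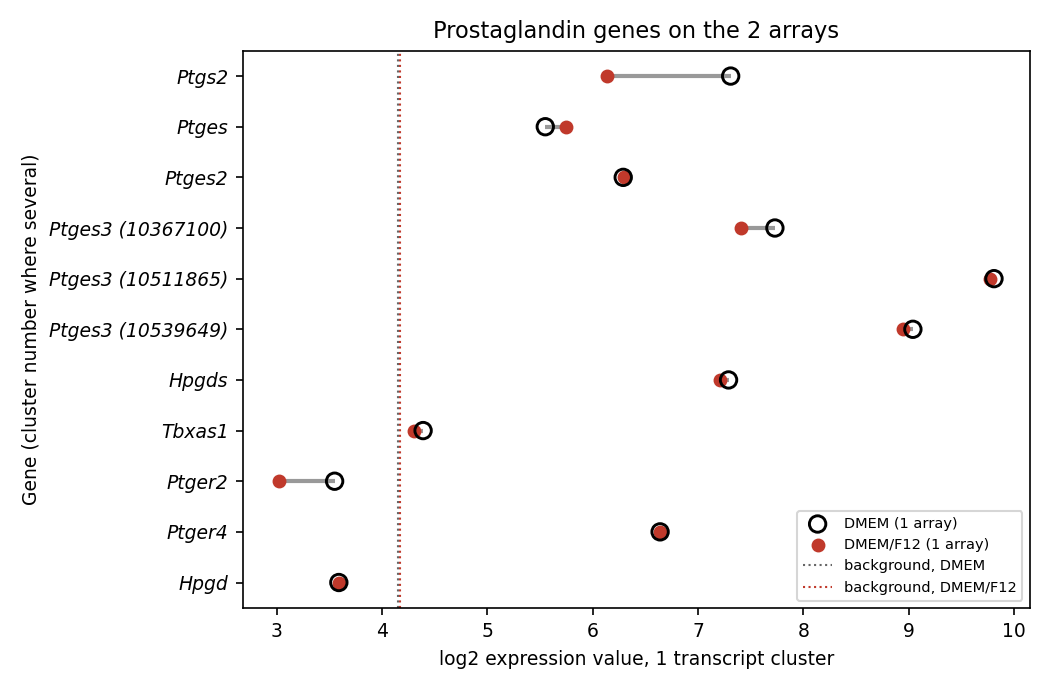
Log2 value (x axis) of each transcript cluster of the 9 prostaglandin genes with a value (y axis) in DMEM (open circles) and in DMEM/F12 (red dots), joined by a gray line, with dotted lines at the background of each array. The widest gap is that of Ptgs2, from 7.31 to 6.14, and Ptger2 and Hpgd lie left of background on both arrays.

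The 3 genes of PGE2 synthases had far smaller differences than Ptgs2. Ptges, which encodes the inducible microsomal synthase mPGES-1, had 5.55 in DMEM and 5.75 in DMEM/F12, so it was 1.15-fold higher where Ptgs2 was lower. Ptges2, which encodes the membrane-associated synthase mPGES-2, had 6.29 and 6.30, a difference of 0.01. Ptges3, the gene of the cytosolic synthase, whose protein is also the HSP90 co-chaperone p23, had a mean of 8.86 and 8.71 over its 3 clusters, a difference of -0.15. For comparison, the median size of the difference over all genes above background on at least 1 array was 0.14, and 33.3% of those genes differed by as much as Ptges or more, against 0.0302% for Ptgs2.
The clusters of Ptges3 were not alike. Cluster 10367100 differed by -0.32, or 1.25-fold, from 7.73 to 7.41. Cluster 10511865 had 9.81 and 9.77 (-0.04) and cluster 10539649 had 9.04 and 8.95 (-0.09). Clusters of this array appear to be numbered along the genome: for the clusters of the other 8 genes, 9 or 10 of the 10 named clusters nearest in number belong to genes on the same chromosome. By this measure only cluster 10367100 has the chromosome of Ptges3, with 9 of its 10 neighbors on it, whereas 9 of the 10 neighbors of each of the other two lie on a different chromosome. Near-identical copies of a gene can share probes, so the signal of the other two clusters, and with it the mean, is uncertain. This comparison was made after the values were seen.

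The remaining terminal synthases differed little. Hpgds encodes the hematopoietic synthase that forms PGD2 in microglia and mast cells. Its signal was 7.29 in DMEM against 7.21 in DMEM/F12, which differ by -0.08. Tbxas1, which encodes thromboxane A synthase and is a known marker of microglia, had 4.39 and 4.30, a difference of -0.09, with both values close to background. The synthase of the brain PGD2 pathway, Ptgds, is not in the group of 10 and had 4.55 and 4.77, a difference of 0.22. Ptgis, the prostacyclin synthase gene, had 4.44 and 4.36 (-0.08), and was named after its value was seen. In the list of other prostanoid synthases and reductases, 8 of 9 genes had a value, 3 were higher, 4 lower and 1 equal, and the median was -0.01. Over all genes above background on at least 1 array, 48.5% were higher and 47.4% lower. Of the 4 listed genes above background, 2 were higher and 2 lower. Next to Ptgds, the larger difference among those above background was that of the carbonyl reductase gene Cbr2, with 0.11.

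Of the 2 receptors, only Ptger4 gave a signal above background. Ptger4, which encodes EP4, had the same value in both media, 6.64. Ptger2, which encodes EP2, was listed at 3.55 and 3.02, nominally -0.53. Both Ptger2 values lie below background, and with them raised to background the difference was 0.02. The array therefore gives no usable direction for Ptger2. Hpgd encodes the dehydrogenase that inactivates PGE2. It was also below background in both media, with 3.59 on each array.
Among the other prostanoid receptors, Ptgir was the most different: the gene of the prostacyclin receptor, which like EP2 and EP4 raises cAMP, was 1.34-fold higher in DMEM/F12 (7.24 and 7.66, or 0.42 on the log2 scale). Ptgdr2, a PGD2 receptor gene, had 4.82 and 4.63 (-0.19). Ptger1 and Ptger3, the genes of the remaining PGE2 receptors, were named after their values were seen. Ptger1 had 5.55 and 5.51, and Ptger3 was not above background. Of this list of 9 measured genes, 5 were above background, with 3 lower, 1 higher and 1 equal. Its median over all 9 was 0.00.

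Of the 7 genes above background, 4 were lower, 2 higher and 1 equal in DMEM/F12, and the median difference was -0.08. Over all genes above background on at least 1 array, 47.4% were lower and 48.5% higher. The other 2 genes, Ptger2 and Hpgd, were below background on both arrays and their differences have no usable direction. Of the 7 genes, 4 differed by at most 0.1. At a threshold of 1.5-fold the count in the group was unchanged, with 1 gene lower and none higher, beside 0.727% of all genes lower and 0.928% higher.

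**Figure D3:**
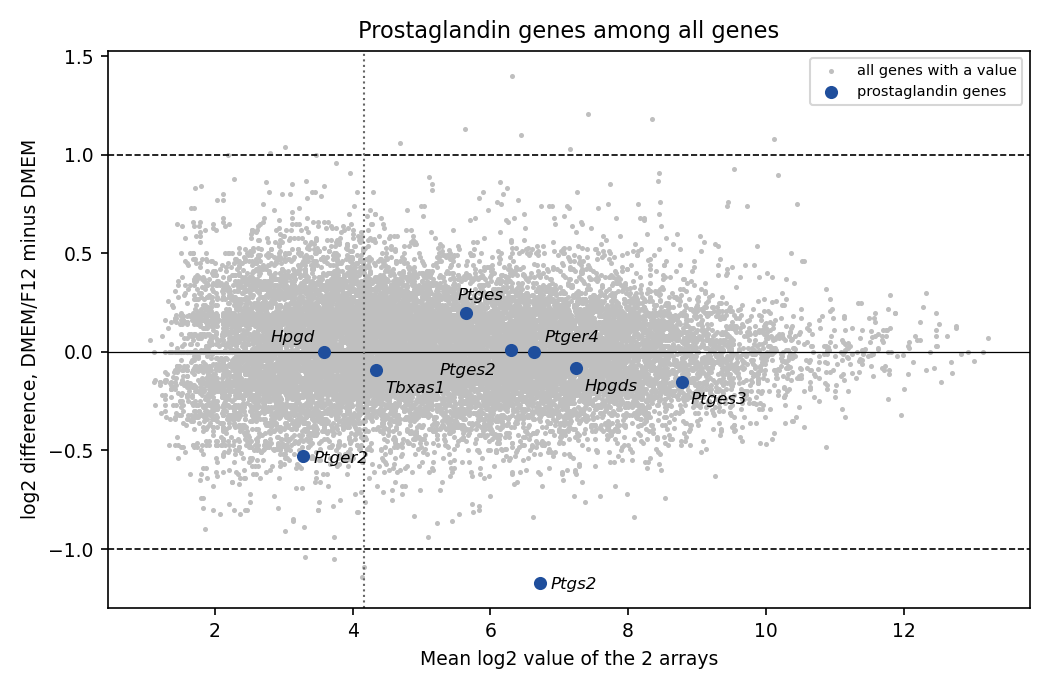
Difference on the log2 scale (DMEM/F12 minus DMEM, y axis) and mean log2 value over both arrays (x axis) for all 19938 genes (gray) and the 9 prostaglandin genes (blue, named); dashed lines mark 2-fold and the dotted line background. Ptgs2 lies below the lower dashed line at -1.17, while the other 8 genes lie between -0.53 and 0.20.

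The steps before and after the cyclooxygenase were followed in further lists. Over all genes above background on at least 1 array, 48.5% were higher and 47.4% lower in DMEM/F12. In the list of arachidonate release and recycling, 12 of 21 measured genes were higher, 9 lower, and the median was 0.05. Of its 19 genes above background, 11 were higher and 8 lower. The genes at 1.5-fold or more were Pla2g7, with 5.48 in DMEM and 6.29 in DMEM/F12 (0.81), and Lpcat3, with 9.57 and 8.94 (-0.63). Pla2g7 encodes an enzyme that breaks down platelet-activating factor and oxidized phospholipids and is not an arachidonate-releasing enzyme in the narrow sense. Lpcat3 works in the opposite direction to release and puts polyunsaturated fatty acids such as arachidonate back into phospholipids. Pla2g4a, the gene of the cytosolic phospholipase that supplies the cyclooxygenases, was named after its value was seen and had 7.62 and 7.38, a difference of -0.24.
For transport and inactivation, 6 of 9 measured genes were lower and 3 higher, with a median of -0.07. Of the 8 above background, 5 were lower and 3 higher. The largest difference was that of Slco4a1, a gene of an organic anion transporter that can carry prostaglandins, with 8.18 in DMEM and 7.63 in DMEM/F12 (-0.55). Ptgr1, the gene of a reductase that inactivates prostaglandin metabolites and leukotrienes, differed by -0.22. Slco2a1, which encodes the prostaglandin uptake transporter, was not above background, and was named after its value was seen.

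Downstream of EP2 and EP4, receptor signals pass through adenylyl cyclase, cAMP, protein kinase A and the transcription factor CREB. Of 16 measured genes of this list, 9 were higher, 6 lower and 1 equal, with a median of 0.04. Of the 15 above background, 9 were higher and 6 lower. Prkar2b, a regulatory subunit gene of protein kinase A, was 1.69-fold higher in DMEM/F12 (5.72 and 6.48) and the adenylyl cyclase gene Adcy9 1.47-fold higher (5.46 and 6.02). Creb1 itself, named after its value was seen, differed by -0.08. Gnas and Prkaca are among the listed genes that no cluster names alone, and were not analysed here.
Genes that respond to cAMP and CREB differed in both directions. Of 14 measured genes, 8 were higher, 4 lower and 2 equal, with a median of 0.05. Of the 11 above background, 6 were higher, 4 lower and 1 equal. Among the lower was Pde4d, named after its value was seen, whose mean over 3 clusters was below background (2.99 in DMEM and 2.77 in DMEM/F12). It was counted because not all of its clusters were. The orphan nuclear receptor gene Nr4a1 had 6.88 in DMEM and 7.41 in DMEM/F12 (0.53), while its relative Nr4a2 had 5.12 and 4.68 (-0.44). None of these genes was past 1.5-fold.

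No measured gene in a list of transcription factors known to act on the Ptgs2 promoter differed by 1.5-fold. Nfkb1, an NF-κB subunit gene, was listed but had no value. Of 22 measured genes in that list, all above background, 15 were higher and 7 lower in DMEM/F12, beside 48.5% higher and 47.4% lower among all genes above background on at least 1 array. Their median difference was 0.06, and the median size of a difference over all those genes was 0.14. The largest differences were those of Nfkb2 (6.81 in DMEM and 7.34 in DMEM/F12, 0.53), an NF-κB subunit gene, and Egr1 (5.16 and 5.65, 0.49), an immediate early gene. The following were named after their values were seen. The C/EBP gene Cebpb, of the family whose letters are marked in the Ptgs2 sequence, differed by 0.08 and Cebpd by -0.08. The E-box factor genes Usf1 and Usf2 differed by 0.16 and -0.07, Rela by 0.05 and Jun by -0.21. RNA levels do not show the activity of these factors, which was not measured.
Ptgs2 mRNA is also controlled after transcription, by proteins that bind its AU-rich tail and by the p38 pathway. All 16 genes of this list were above background, with 8 lower, 7 higher and 1 equal and a median of -0.04. Pdcd4, which encodes an inhibitor of translation initiation, had 7.31 in DMEM and 8.16 in DMEM/F12 (1.8-fold higher), and Mapkapk2, a kinase gene of the p38 pathway, had 10.12 and 10.62 (0.50). Named after their values were seen, Zfp36, the gene of the mRNA-destabilizing protein tristetraprolin, differed by 0.06 and Elavl1, the gene of the stabilizing protein HuR, by -0.11. Creb1, Junb, Fos and Dusp1 each stand in 2 of these lists.

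**Figure D4:**
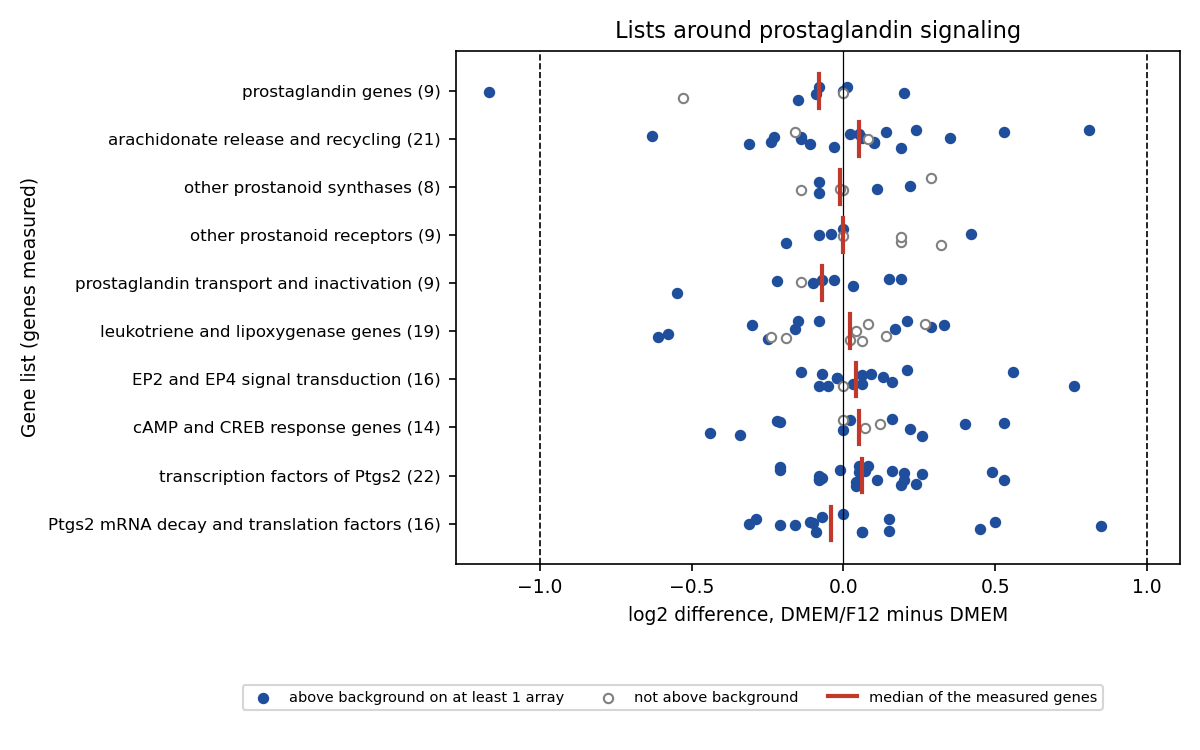
Difference on the log2 scale (x axis, DMEM/F12 minus DMEM) for every measured gene in the prostaglandin group and the 9 lists around it (y axis, number of measured genes in parentheses), with filled dots above background on at least 1 array, open dots not above it, and a red bar at the median; dots are spread vertically for legibility. Ptgs2 at -1.17 is the only dot outside the dashed 2-fold lines, and the medians lie between -0.08 and 0.06.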

How the data were processed

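Total RNA of 1 BV2 culture per medium was hybridized to 1 Affymetrix Mouse Gene 1.0 ST array each. The authors used the Affymetrix programs Transcriptome Analysis Console and Expression Console, which the methods and the submitters' processing notes name, and deposited a log2 value for each of 28944 transcript clusters. Not given in the sources used here are the summarization, between-array normalization, program versions and genome build. The labels state an incubation of over 1 day, and the methods 1 d after medium exchange. Samples were assigned by the submitters' labels.

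No further scaling was applied. The platform annotation named 21789 clusters with exactly 1 gene symbol, and clusters of a gene were averaged. Thresholds were 2-fold and 1.5-fold. The members and the gene lists were chosen with earlier results of these data known. Besides the members, the naming rule took, per list, genes above background past 1.5-fold, the 2 largest differences above background, and the 5 genes nearest to Ptgs2. Genes named outside it are marked. Promoter windows came from the RefSeq table of GRCm38.p6. Protein sequences were not used here. The alternatives were median centring, quantile normalization, loess centring (span 0.3), values below background raised to it, the brightest cluster per gene, and only genes above background. The steps were tested on simulated data with known changes larger than that of Ptgs2. How reliably a difference of the size seen for Ptgs2 is called was not tested. Calculations used Python 3.11.15, numpy 2.4.6, pandas 2.3.3 and statsmodels 0.14.6, and plots matplotlib 3.10.9. The number of arrays limits the precision.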

Additional observations from a re-analysis of the deposited data

How the results depend on the processing

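No paired analysis was possible because there was only 1 array for each medium. In place of a replicate SD, shifts of over 0.1 (log2) in a difference or median, and of over 1.5 times in a count, were treated as moved. Of 123 values recomputed under the alternatives, 117 had not moved. Some of these could not move. The brightest cluster is the only cluster of most members. Raising values to background leaves a gene unchanged if all its clusters are above it on both arrays. Ptgs2, the only recomputed difference past 2-fold, kept its sign. Values near no difference could change sign without counting as moved, as did Ptges2, with 0.01 and, after median centring, -0.01. Ptgs2 ranged from -1.19 to -1.15. With values below background raised to it, Ptger2 moved from -0.53 to 0.02 and the count of all genes at least 2-fold lower from 5 to 1. With the brightest cluster per gene, Ptges3 moved from -0.15 to -0.04. That cluster, 10511865, has its neighbors on a different chromosome from Ptges3, and cluster 10367100, with neighbors on the chromosome of Ptges3, gave -0.32. The 1.5-fold threshold gave 145 genes lower (5 at 2-fold) and 185 higher (12 at 2-fold). With only genes above background, the median of the leukotriene and lipoxygenase list moved from 0.02 to -0.14. Signal over background limits Ptger2 and Hpgd, which have no usable difference, and Tbxas1, which lies close to background.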

Other observations

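Arachidonic acid also feeds the lipoxygenase pathway, which forms leukotrienes and hydroxy fatty acids. Of 19 measured genes in a list of this branch, 10 were higher, 9 lower, and the median difference was 0.02. Of its 11 genes above background, 7 were lower and 4 higher in DMEM/F12, with a median of -0.14, beside 47.4% lower and 48.5% higher over all genes above background on at least 1 array. Alox15, a lipoxygenase gene of macrophages, differed by -0.58 (5.08 in DMEM and 4.50 in DMEM/F12). Aloxe3, an epidermal lipoxygenase gene, had 4.61 in DMEM, differed by -0.61 and was below background in DMEM/F12. The following were named after their values were seen. Alox5, the lipoxygenase gene of leukotriene synthesis, lay close to background at 4.17 and 4.38. The gene of its activating protein, Alox5ap, had 8.36 and 8.20 (-0.16). Lta4h, which encodes the hydrolase that forms leukotriene B4, differed by 0.17, and the leukotriene receptor gene Cysltr1 by -0.25.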
